A study of Mus with 15 samples.

Results

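FOXP3-expressing thymocytes were compared with FOXP3-negative thymocytes, averaged over cells without and with CD25. CD25, the IL-2 receptor alpha chain, makes a cell sensitive to that cytokine, and FOXP3 is the lineage-defining transcription factor of regulatory T cells (Tregs). The comparison used 12 of the 15 libraries of the series, 6 from 2 FOXP3-expressing gates and 6 from 2 FOXP3-negative gates, with 3 libraries for each of the 4 gates. All cells came from the thymus of 6-week-old female mice of the strain C57Bl/6 x Foxp3-GFP, in which GFP reports FOXP3. After magnetic depletion of CD8-bearing cells, live cells bearing CD4 and the beta chain of the T cell receptor (TCRb) were sorted in every gate, and those with CD8, Bst2 or CD73 were excluded. Conventional CD4 single-positive cells (Conventional CD4SP) were CD25-Foxp3-, CD25+ progenitors were CD25+Foxp3-, FOXP3lo progenitors were CD25-Foxp3lo and mature Tregs were CD25+Foxp3+. The 3 libraries of the Bst2+ gate were left out. The labels number the replicates of every gate 40, 42 and 43 and do not state whether a replicate was 1 animal or several pooled, so the p-values measure only how far these libraries spread, which may be technical.

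In the thymus, a developing CD4 T cell that recognises self-antigen can become a Treg. Either CD25 or a low amount of FOXP3 can appear first, and cells of both kinds can give rise to Tregs that carry both proteins. FOXP3 acts with partner factors to raise genes of the Treg program and to lower genes of conventional helper cells. IL-2, read through CD25 and the transcription factor STAT5, promotes the last step. As thymocytes mature further they stop dividing, lower genes of the cortex, and raise S1pr1 and Klf2, which govern exit from the thymus.

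The 12 libraries held between 12597114 and 23758157 assigned counts. Of 55573 genes counted, 15648 passed the filter on low counts and were tested. Levels are counts scaled to library size (CPM), listed in the order of replicates 40, 42 and 43. Differences are log2 fold changes ± standard error from edgeR's quasi-likelihood test on 4 gate means, with Benjamini-Hochberg adjustment over all genes tested, and a gene was called at an adjusted p under 0.05. The FOXP3 effect is the mean of FOXP3lo progenitors and mature Tregs minus the mean of conventional cells and CD25+ progenitors. It is the average of the CD25-negative contrast (FOXP3lo progenitors against conventional cells) and the CD25-positive contrast (mature Tregs against CD25+ progenitors). These contrasts share no library. The gates were sorted, so FOXP3 and whatever else differed between the sorted cells cannot be told apart. In bulk RNA, fewer cells of a type and less RNA per cell cannot be told apart either.

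Genes of the sorted proteins were read first, as a check of the labels and not a finding. Foxp3 (ENSMUSG00000039521, chromosome X, 7573644 to 7595245 on GRCm38) was at 0.772, 1.57 and 0.523 CPM in conventional cells, 4.21, 1.83 and 3.62 in CD25+ progenitors, 298, 273 and 302 in FOXP3lo progenitors and 535, 616 and 651 in mature Tregs. All 6 libraries of the FOXP3 gates lay far above the other 6, and mature Tregs lay above FOXP3lo progenitors. Il2ra, which encodes CD25 and was also used for the sort, was at 10.4, 7.49 and 9.48 CPM in conventional cells, 296, 283 and 292 in CD25+ progenitors, 105, 101 and 118 in FOXP3lo progenitors and 1162, 1183 and 1125 in mature Tregs. Its libraries in FOXP3lo progenitors lay above those of conventional cells and below those of CD25+ progenitors. Nt5e, which encodes the CD73 that every gate excluded, was at 0.325, 1.87 and 1.28 CPM in conventional cells, 3.41, 3.701 and 4.15 in CD25+ progenitors, 5.38, 4.83 and 10.1 in FOXP3lo progenitors and 12.9, 9.31 and 12.2 in mature Tregs. Nt5e was low in every gate, with the highest values in the FOXP3 gates. Cd4 lay between 523 and 925 CPM over the 12 libraries. Bst2 lay between 11.3 and 18.3 CPM.

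Averaged over CD25, 2998 genes (19.2% of those tested) rose and 3093 (19.8%) fell in the FOXP3 gates. The CD25-negative contrast called 2003 genes higher (12.8%) and 1922 lower (12.3%). The CD25-positive contrast called 2489 higher (15.9%) and 2625 lower (16.8%). The genes shared by both contrasts numbered 1257 higher in both (8.03%) and 1242 lower in both (7.94%), and all 2499 were also called in the FOXP3 effect. That effect is the average of both contrasts, so its call largely follows from the other calls. The genes higher in both made up 62.8% of those higher in the CD25-negative contrast and 50.5% of those higher in the CD25-positive contrast. The genes lower in both made up 64.6% and 47.3% of the lower genes of those contrasts. A further 184 genes (1.18%) were called in both contrasts with opposite signs. The scatter of the contrasts shows the shared genes in opposite corners and the genes with opposite signs off the diagonal. Tested against a fold of 1.5, the shared genes numbered 224 higher and 215 lower. With the Bst2+ libraries in the fit they numbered 484 and 369, and none of the shared genes was called the other way in both contrasts under any alternative run.

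**Figure D1:**
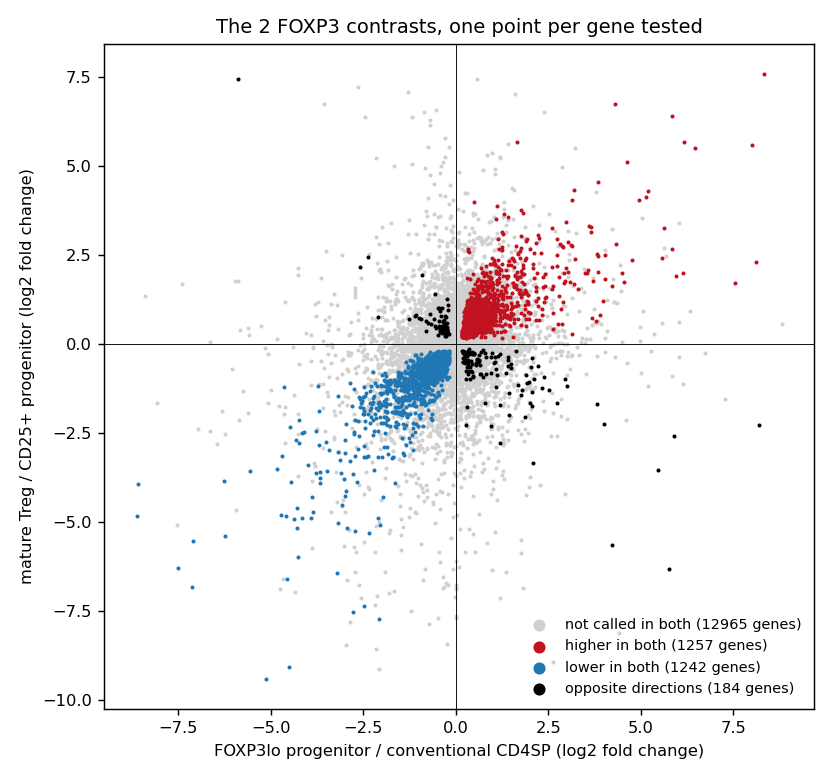
Each point is 1 of the 15648 genes tested, with the log2 fold change of FOXP3lo progenitors over conventional CD4SP cells on the x axis and of mature Tregs over CD25+ progenitors on the y axis. Red marks the 1257 genes higher in both, blue the 1242 lower in both, black the 184 called with opposite signs and grey all other genes.

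The shared changes were mostly modest. Genes higher in both had a median log2 fold change of 0.58 in the CD25-negative and 0.70 in the CD25-positive contrast, and 227 of them rose by more than 2-fold in both. Genes lower in both had medians of −0.71 and −0.75, and 341 fell by more than 2-fold in both. All 6 libraries of the FOXP3 gates lay above all 6 others for 846 of the 1257 and below them for 675 of the 1242. Over all genes tested, 6.44% were separated upwards and 5.32% downwards in this way. Both FOXP3 gate means lay above both other means for 1096 of the higher genes, and below them for 1021 of the lower genes. The shared genes were picked by their calls in both contrasts, so these separations and orders partly follow from that choice. Mature Tregs did not always lie farther out than FOXP3lo progenitors. Their mean was the higher of these for 594 of the 1257 genes higher in both, and the lower for 476 of the 1242 lower in both. Of the shared genes with a class in the annotation, 2282 were protein coding and 49 were long noncoding RNAs, while 144 of the 2499 had no symbol.

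Among the shared genes that rose, Flicr, a long noncoding RNA gene (ENSMUSG00000039545, chromosome X, 7573600 to 7581027), had the largest FOXP3 effect of those that met the naming rule. Flicr was at 0.162, 0.0749 and 0.174 CPM in conventional cells, 0.186, 0.913 and 0.106 in CD25+ progenitors, 10.1, 11.96 and 10.3 in FOXP3lo progenitors and 20.5, 19.5 and 23.9 in mature Tregs. Every library of the FOXP3 gates lay above every other library. The naming rule required such a separation and a call in both contrasts, so for the genes it picked neither is support of its own. The FOXP3 effect of Flicr was 5.91 ± 0.30 (adjusted p = 5.52e-20). Flicr overlaps Foxp3 on the same strand and shares exons with it, so counts of the pair are not fully independent. Ctla4 (ENSMUSG00000026011, chromosome 1, 60887000 to 60915832) encodes an inhibitory receptor that binds CD80 and CD86. It was at 10.2, 12.4 and 11.2 CPM in conventional cells, 33.3, 21.2 and 29.2 in CD25+ progenitors, 90.2, 84.9 and 96.4 in FOXP3lo progenitors and 215, 179 and 209 in mature Tregs. Its levels rose in a ladder from conventional cells to mature Tregs, with no overlap between gates. The FOXP3 effect was 2.94 ± 0.08 (adjusted p = 1.92e-27), and the difference between the contrasts, −0.16 ± 0.16, was not called (adjusted p = 0.649).

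**Figure D2:**
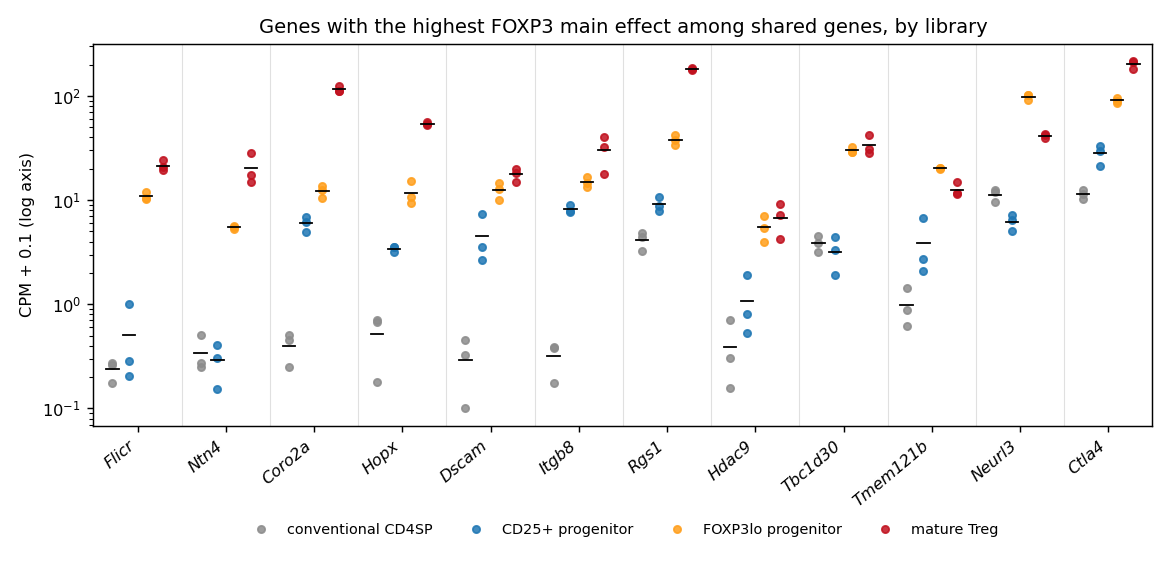
CPM + 0.1 on a log axis for the 12 genes with the highest FOXP3 effect by the naming rule, 1 point per library and a bar for the mean of 3, coloured by gate. All FOXP3lo and mature Treg points lie above all points of conventional cells and CD25+ progenitors for each gene, because the naming rule required it.

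Rgs1, a regulator that shortens G protein signals from chemokine receptors, was the most abundant gene of this set in mature Tregs other than Ctla4. Rgs1 was at 4.75, 3.14 and 4.304 CPM in conventional cells, 8.73, 7.76 and 10.6 in CD25+ progenitors, 37.95, 33.8 and 42.3 in FOXP3lo progenitors and 176, 182 and 185 in mature Tregs. The rise was larger in the CD25-positive contrast (4.32 ± 0.13) than in the CD25-negative contrast (3.19 ± 0.14), a difference of 1.13 ± 0.19 (adjusted p = 2.25e-05). Coro2a, of the coronin family of actin-binding proteins, was at 0.406, 0.1497 and 0.349 CPM in conventional cells, 6.81, 6.08 and 4.79 in CD25+ progenitors, 13.5, 10.3 and 12.4 in FOXP3lo progenitors and 110.2, 125 and 112 in mature Tregs. CD25+ progenitors lay between conventional cells and FOXP3lo progenitors, and mature Tregs lay about an order of magnitude higher. The FOXP3 effect of Coro2a was 4.74 ± 0.14 (adjusted p = 1.92e-27). Hopx, a homeodomain protein that does not bind DNA itself, was at 0.0812, 0.599 and 0.582 CPM in conventional cells, 3.41, 3.04 and 3.46 in CD25+ progenitors, 10.5, 9.26 and 15.2 in FOXP3lo progenitors and 56.3, 52.2 and 53.1 in mature Tregs. The gates kept the order seen for Coro2a, with a FOXP3 effect of 4.49 ± 0.19 (adjusted p = 5.2e-22). Ntn4, which encodes the secreted protein netrin-4, was at 0.406, 0.1497 and 0.174 CPM in conventional cells, 0.3096, 0.203 and 0.0532 in CD25+ progenitors, 5.38, 5.16 and 5.56 in FOXP3lo progenitors and 17.5, 28.2 and 14.96 in mature Tregs. It was near 0 in both FOXP3-negative gates and rose in both contrasts, by 4.30 ± 0.42 and 6.73 ± 0.44.

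Some of the largest effects owed much to very low levels in conventional cells. Itgb8 (ENSMUSG00000025321, chromosome 12, 119158022 to 119238802), the integrin chain that pairs with alpha-V to release active TGF-beta, was at 0.284, 0.0749 and 0.291 CPM in conventional cells, 8.79, 7.66 and 7.77 in CD25+ progenitors, 13.1, 14.6 and 16.5 in FOXP3lo progenitors and 32.4, 17.8 and 40.6 in mature Tregs. CD25+ progenitors already stood well above conventional cells, so the rise was 5.94 ± 0.36 in the CD25-negative contrast and 1.91 ± 0.23 in the CD25-positive contrast. That difference was called (−4.03 ± 0.45 (adjusted p = 7.04e-09)). Dscam, an adhesion molecule of the immunoglobulin superfamily, also rose less in the CD25-positive contrast, with a difference of −4.17 ± 0.62. Tmem121b, a membrane protein gene, did too, with −2.83 ± 0.47. Neurl3, of a family of ubiquitin ligases, was at 12.3, 11.8 and 9.54 CPM in conventional cells, 4.95, 6.34 and 7.02 in CD25+ progenitors, 102, 91.1 and 102 in FOXP3lo progenitors and 42.4, 42.7 and 39.1 in mature Tregs. Here FOXP3lo progenitors were highest, above mature Tregs, and CD25+ progenitors lowest, with a FOXP3 effect of 2.94 ± 0.10 (adjusted p = 5.93e-26). Tbc1d30, of a family that acts on Rab GTPases, was at 3.78, 3.07 and 4.42 CPM in conventional cells, 1.796, 4.31 and 3.19 in CD25+ progenitors, 28.8, 32.1 and 28.6 in FOXP3lo progenitors and 42.3, 30.6 and 28.03 in mature Tregs. Both FOXP3 gates overlapped each other and stood above the rest, with no called difference between the contrasts (0.44 ± 0.31). Hdac9, a class IIa histone deacetylase, stayed under 10 CPM and had a FOXP3 effect of 3.56 ± 0.38 (adjusted p = 4.21e-10).

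Known Treg genes had the largest median of the 18 lists that describe gene programs. Of 28 tested members of a Treg signature list, 18 rose in both contrasts (64.3%, against 8.03% of all genes) and none fell in both. A further 2 were called with opposite signs, as were 1.18% of all genes. The median log2 difference of the list was 2.06 in the FOXP3 effect, 1.90 in the CD25-negative contrast and 1.86 in the CD25-positive contrast. Over all genes tested the same medians were −0.01. Members higher in both included Ikzf4, Tnfrsf18, Tnfrsf4, Nrp1, Lrrc32 and Gpr83. Lrrc32 encodes GARP, the surface anchor of latent TGF-beta. Lrrc32 was at 1.503, 1.796 and 1.51 CPM in conventional cells, 51.2, 45.4 and 57.4 in CD25+ progenitors, 23.6, 23.7 and 31.1 in FOXP3lo progenitors and 287, 281 and 295 in mature Tregs. FOXP3lo progenitors lay below CD25+ progenitors, so the 6 libraries of each kind overlapped although both contrasts rose (4.04 ± 0.15 and 2.49 ± 0.10). Gpr83, an orphan receptor abundant in Tregs, was at 28.8, 30.7 and 28.1 CPM in conventional cells, 12.4, 14.9 and 11.1 in CD25+ progenitors, 38.3, 43.4 and 42.2 in FOXP3lo progenitors and 212, 202 and 189.6 in mature Tregs. Its rise was mostly in the CD25-positive contrast (3.97 ± 0.11, against 0.50 ± 0.10). Of 30 transcription factors and cofactors tied to the Treg program, 9 rose in both, 6 fell in both and 2 were opposed. That is 30% higher and 20% lower, against 8.03% and 7.94% of all genes. Those that rose were Foxo1, Foxo3, Foxp1, Bcl11b, Ets1, Myb, Klf2, Id3 and Tet3. Those that fell included Runx3 (−1.53 ± 0.08), Irf4 (−1.22 ± 0.08) and Uhrf1 (−1.89 ± 0.10), which helps copy DNA methylation during division. Foxo1, a factor that keeps T cells quiescent, was at 220.4, 217 and 209 CPM in conventional cells, 196, 206 and 192 in CD25+ progenitors, 428, 412 and 385 in FOXP3lo progenitors and 337, 326 and 323 in mature Tregs. It stood above both FOXP3-negative gates in every library of both FOXP3 gates.

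**Figure D3:**
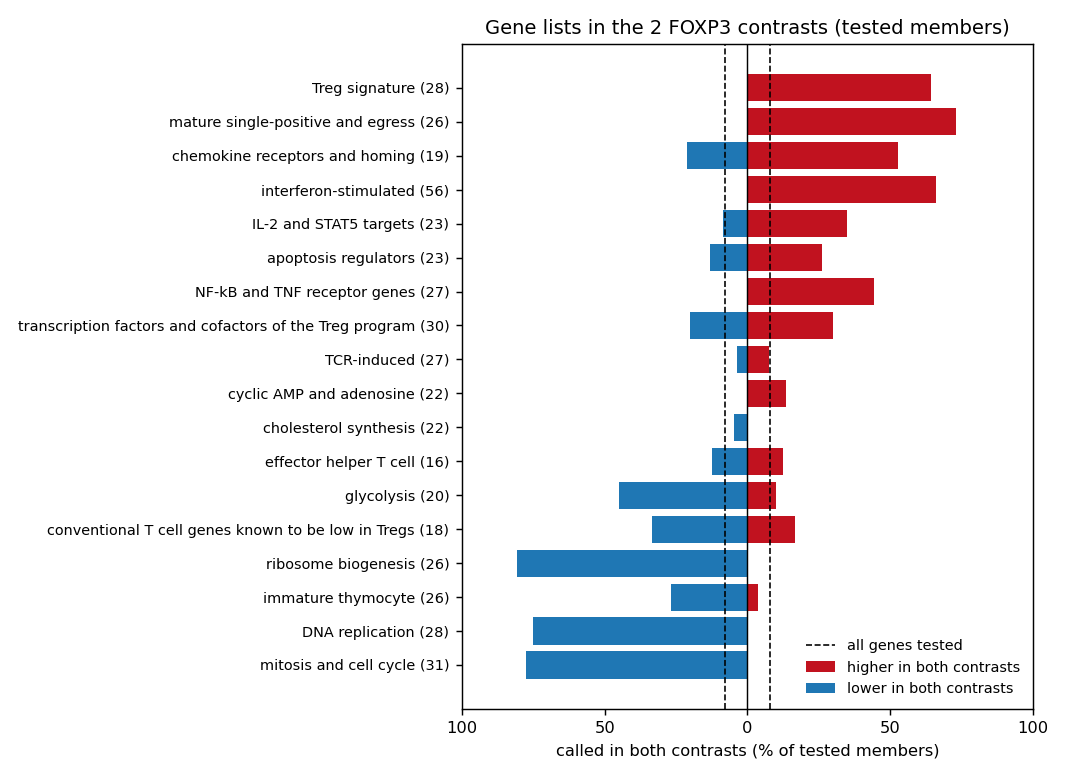
Share of the tested members of 18 gene lists called higher in both FOXP3 contrasts (red, to the right) or lower in both (blue, to the left), with the number tested in brackets. Dashed lines mark the shares over all genes tested, 8.03% and 7.94%.

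Most genes of a thymocyte maturation and exit list rose. Of 26 tested members of a mature single-positive and egress list, 19 rose in both contrasts (73.1%, against 8.03% of all genes). None fell in both and 1 (Gimap9) was opposed. Their median log2 difference was 0.94 in the FOXP3 effect, 0.67 in the CD25-negative contrast and 1.31 in the CD25-positive contrast. Il7r, the IL-7 receptor alpha chain (FOXP3 effect −1.62), Emb (−0.20), and the integrin chains Itgb2 (−0.17) and Itgal (−0.15) were called lower in the FOXP3 effect. S1pr1 (ENSMUSG00000045092, chromosome 3, 115710433 to 115715072) encodes the receptor that draws cells out of the thymus along a lipid gradient. S1pr1 was at 226, 188 and 188 CPM in conventional cells, 86.9, 69.1 and 72.5 in CD25+ progenitors, 618, 615 and 623 in FOXP3lo progenitors and 517, 506 and 499 in mature Tregs. Conventional cells stood between CD25+ progenitors, the lowest gate, and the FOXP3 gates, and FOXP3lo progenitors were highest. The difference between the contrasts was 1.11 ± 0.11 (adjusted p = 8.91e-11). Gimap3, a GTPase of the lymphocyte survival family, was at 346, 352 and 309 CPM in conventional cells, 112, 113 and 99.3 in CD25+ progenitors, 676, 666 and 717 in FOXP3lo progenitors and 546, 567 and 548 in mature Tregs. Its libraries followed the order of S1pr1. Klf2, the factor that drives S1pr1, had a FOXP3 effect of 0.98 ± 0.05 (adjusted p = 7.43e-20). Of 19 tested chemokine receptors and homing molecules, 10 rose in both, 4 fell in both (Ccr4, Ccr8, Itgb1 and Gpr183) and 1 (Cd44) was opposed. That is 52.6% higher and 21.1% lower, against 8.03% and 7.94% of all genes.

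Most members of an interferon-stimulated list rose, by small amounts. Of 56 tested members, 37 rose in both contrasts (66.1%, against 8.03% of all genes) and none fell in both. Their median log2 difference was 0.73 in the FOXP3 effect, 0.54 in the CD25-negative contrast and 0.92 in the CD25-positive contrast. The FOXP3 effect was called lower for Oas2 (−0.55). Members higher in both included Stat2, Irf7, Irf9, Ifit1, Ifit3, Mx1, Usp18 and Zbp1. Ifi203, of the interferon-inducible DNA sensor family, was at 154, 139 and 123 CPM in conventional cells, 73.3, 63.1 and 65.9 in CD25+ progenitors, 252, 267 and 267 in FOXP3lo progenitors and 248, 233 and 266 in mature Tregs. CD25+ progenitors were lowest, conventional cells intermediate and the FOXP3 gates highest. Gbp7, a guanylate-binding protein of host defence, was at 107, 96.8 and 101 CPM in conventional cells, 50.3, 40.97 and 39.5 in CD25+ progenitors, 174, 159 and 165 in FOXP3lo progenitors and 167, 171 and 182 in mature Tregs. The gates kept the same order, and the difference between the contrasts was 1.29 ± 0.12 (adjusted p = 4.09e-11). Of 10 tested markers of plasmacytoid dendritic cells, Irf8 and Tlr7 were higher in both, Ptprs was lower in both and the others were not called in both. The summed level of the 15 genes of that marker list overlapped between conventional cells and FOXP3lo progenitors and was higher in both CD25-positive gates, at 326 to 347 CPM in conventional cells, 449 to 483 in CD25+ progenitors, 327 to 358 in FOXP3lo progenitors and 423 to 429.6 in mature Tregs, with Klk1 and Cd300c at 0. Whether such cells had a part in the rise was not tested. Ifi203, Ifi209, Slfn8 and the Gimap genes have close paralogs, so their counts are uncertain. With a test against a fold of 1.5, 11 interferon genes were called in both, and with the Bst2+ libraries in the fit 23 were.

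Genes of NF-kB and TNF receptor signalling rose in both contrasts for 12 of 27 tested members (44.4%, against 8.03% of all genes). They fell in both for none and were opposed for 2. The median log2 difference was 0.36 in the FOXP3 effect, 0.53 in the CD25-negative contrast and 0.25 in the CD25-positive contrast. The FOXP3 effect was called higher for 20 members and lower for 3. Those that rose in both contrasts were Rel, Nfkbia, Nfkbiz, Bcl3, Tnip1, Traf1, Traf2, Birc3, Tnfrsf18, Tnfrsf4, Cd27 and Ltb. Rel, the NF-kB subunit that acts on Foxp3, was at 123, 110.0 and 108 CPM in conventional cells, 225, 222 and 218 in CD25+ progenitors, 234, 211 and 234 in FOXP3lo progenitors and 429, 426 and 458 in mature Tregs. CD25+ and FOXP3lo progenitors overlapped in level, and the rise was 0.99 ± 0.07 in the CD25-negative and 0.98 ± 0.07 in the CD25-positive contrast. Traf1, an adaptor of TNF receptors, was at 81.2, 86.7 and 77.6 CPM in conventional cells, 59.7, 64.4 and 54.9 in CD25+ progenitors, 166, 171 and 164 in FOXP3lo progenitors and 149, 150.4 and 159 in mature Tregs. Here all FOXP3-gate libraries stood above the rest. Of 23 tested members of a list of IL-2 and STAT5 targets and signalling genes, 8 rose in both (34.8%, against 8.03% of all genes). They were Cish, Il2rb, Lta and Mcl1, and also Stat5a, Stat5b, Jak1 and Jak3, which carry the signal itself. Socs1, Socs2, Socs3, Pim1 and Myc were among the members not called in both. Bcl2l1 and Id2 fell in both (8.70%, against 7.94% of all genes) and 1 (Bcl2) was opposed. The median log2 difference of this list was −0.06 in the CD25-negative contrast, with 8 members called higher and 4 lower. It was 0.65 in the CD25-positive contrast, with 18 called higher and 2 lower. Cish, a feedback inhibitor induced by STAT5, was at 15.9, 15.2 and 15.9 CPM in conventional cells, 77.97, 72.5 and 82.2 in CD25+ progenitors, 51.8, 54.4 and 55.1 in FOXP3lo progenitors and 212, 191 and 207 in mature Tregs. FOXP3lo progenitors, which were sorted as CD25-negative, lay above conventional cells and below CD25+ progenitors. Stat5a was at 84.6, 86.5 and 91.4 CPM in conventional cells, 189, 189 and 207 in CD25+ progenitors, 162, 153 and 175 in FOXP3lo progenitors and 292, 305 and 307 in mature Tregs. Its FOXP3 effect was 0.76 ± 0.05 (adjusted p = 3.72e-16).

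Among dissociation and immediate early genes, 5 of 16 tested (Jund, Ier5, Btg1, Btg2 and Klf6) rose in both contrasts (31.2%, against 8.03% of all genes), a count that became 1 against a fold of 1.5 and 2 with the Bst2+ libraries in the fit. The summed level of the 18 genes of that list was 1770.2 to 1869.8 CPM in conventional cells, 1833 to 1941 in CD25+ progenitors, 2325 to 2559 in FOXP3lo progenitors and 2262 to 2591 in mature Tregs. The FOXP3 gates were thus higher for this list too, and its part in the rise of NF-kB and interferon genes was not tested. Apoptosis regulators rose in both for 6 of 23 tested (Mcl1, Casp8, Cflar, Birc2, Birc3 and Xiap) and fell in both for 3 (Bcl2l1, Bmf and Trp53). That is 26.09% higher and 13.04% lower, against 8.03% and 7.94% of all genes. Against a fold of 1.5, only 1 apoptosis regulator was called in both in the same direction, and with the Bst2+ libraries in the fit 5 were. Of 22 tested genes of cyclic AMP and adenosine signalling, 3 rose in both (Pde4b, Pde7b and Akap13), which is 13.6% against 8.03% of all genes, and 1 (Pde4a) was opposed. That count of 3 was 0 against a fold of 1.5 and 1 with the Bst2+ libraries in the fit.

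The 12 shared genes that fell furthest by the naming rule were at or under 8.42 CPM in every library of the FOXP3 gates. Asb2 (ENSMUSG00000021200, chromosome 12, 103321142 to 103356001), which recruits substrates to a ubiquitin ligase, had the largest fall among the genes that met the naming rule. Asb2 was at 12.8, 16.2 and 18.1 CPM in conventional cells, 8.55, 16.2 and 9.099 in CD25+ progenitors, 0.636, 1.01 and 0.7702 in FOXP3lo progenitors and 0.502, 0 and 0.0650 in mature Tregs. No FOXP3-gate library was above 1.01 CPM, and the FOXP3 effect was −5.13 ± 0.31 (adjusted p = 2.33e-17). Chl1 (ENSMUSG00000030077, chromosome 6, 103510586 to 103750211), an adhesion molecule of the L1 family, was at 85.9, 97.5 and 105 CPM in conventional cells, 38.6, 41.8 and 27.3 in CD25+ progenitors, 7.17, 8.42 and 6.82 in FOXP3lo progenitors and 1.84, 1.04 and 4.03 in mature Tregs. The gates ran in a descending ladder from conventional cells to mature Tregs. Its FOXP3 effect was −3.80 ± 0.19 (adjusted p = 1.98e-11), with no called difference between the contrasts (−0.24 ± 0.38). Adgrg3, an adhesion G protein-coupled receptor, was at 46.7, 41.5 and 40.4 CPM in conventional cells, 14, 12.7 and 15.4 in CD25+ progenitors, 3.18, 4.49 and 2.48 in FOXP3lo progenitors and 0.586, 1.598 and 0.845 in mature Tregs. It followed the ladder of Chl1. F13a1, the coagulation factor XIII A chain, did as well, with a FOXP3 effect of −3.36 ± 0.15 (adjusted p = 3.09e-21).

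**Figure D4:**
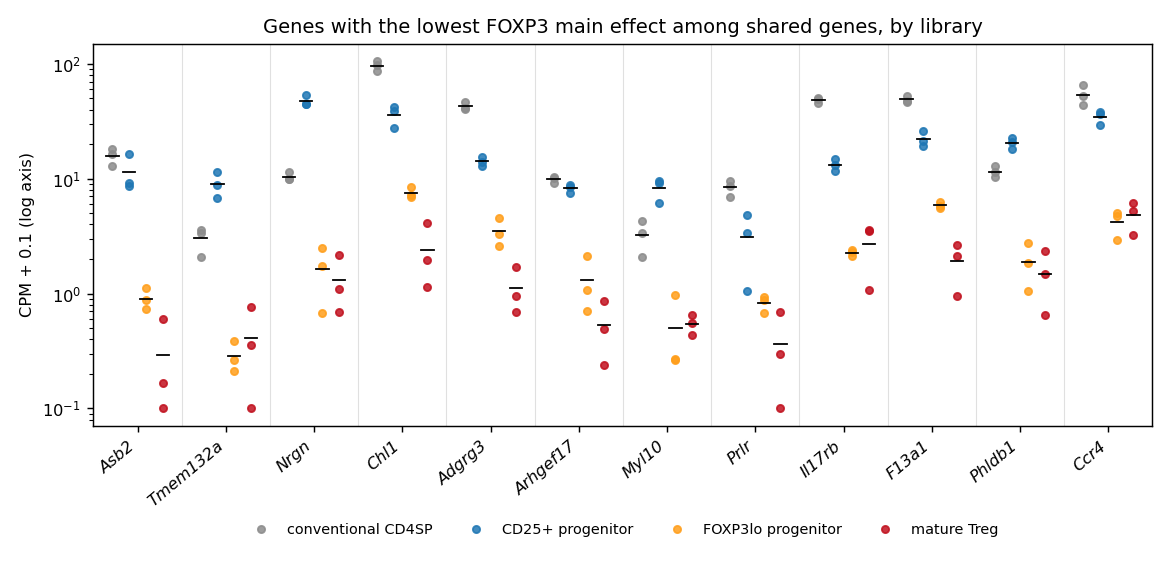
CPM + 0.1 on a log axis for the 12 genes with the lowest FOXP3 effect by the naming rule, 1 point per library and a bar for the mean of 3, coloured by gate. All FOXP3lo and mature Treg points lie below all points of conventional cells and CD25+ progenitors for each gene, because the naming rule required it.

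Nrgn, the calmodulin-binding protein neurogranin, was at 9.87, 9.81 and 11.2 CPM in conventional cells, 44.5, 52.98 and 44.6 in CD25+ progenitors, 0.579, 2.41 and 1.65 in FOXP3lo progenitors and 1.004, 2.08 and 0.585 in mature Tregs. It peaked in CD25+ progenitors, and the fall was larger in the CD25-positive contrast, by −2.54 ± 0.45 (adjusted p = 0.000113). Il17rb, a subunit of the IL-25 receptor, was at 45.8, 49.5 and 49.96 CPM in conventional cells, 13.1, 14.7 and 11.5 in CD25+ progenitors, 2.02, 2.19 and 2.31 in FOXP3lo progenitors and 3.43, 0.973 and 3.45 in mature Tregs. It peaked in conventional cells, and the fall there was the larger (−4.47 ± 0.25, against −2.33 ± 0.25). Ccr4, a chemokine receptor of thymocytes entering the medulla, was at 43.5, 52.2 and 65.96 CPM in conventional cells, 36.5, 29.1 and 38.2 in CD25+ progenitors, 4.92, 2.81 and 4.62 in FOXP3lo progenitors and 5.105, 3.13 and 6.05 in mature Tregs. Both FOXP3-negative gates were high and both FOXP3 gates low, with a FOXP3 effect of −3.28 ± 0.15 (adjusted p = 6.88e-21). The rest of the set comprised Tmem132a (−4.40 ± 0.42), Arhgef17 (−3.65 ± 0.30), the myosin light chain Myl10 (−3.55 ± 0.38), the prolactin receptor Prlr (−3.53 ± 0.41) and Phldb1 (−3.29 ± 0.23). The highest level among these 5 genes was 22.4 CPM, for Phldb1 in a CD25+ progenitor library.

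Conventional T cell genes known to be low in Tregs did not move as a block. Of 18 tested, 6 fell in both contrasts (Satb1, Tcf7, Igfbp4, Cd40lg, Il21 and Id2), 3 rose in both (Tnik, Dgka and Slamf6) and 1 (Ptpn22) was opposed. That is 33.3% lower and 16.7% higher, against 7.94% and 8.03% of all genes. Cd40lg, the ligand by which helper cells activate B cells, was at 96.9, 106 and 112 CPM in conventional cells, 99.1, 111 and 103 in CD25+ progenitors, 40.96, 41.99 and 39.7 in FOXP3lo progenitors and 14.6, 14.9 and 13.98 in mature Tregs. The fall was present in FOXP3lo progenitors and larger in mature Tregs, a difference between contrasts of −1.49 ± 0.14 (adjusted p = 6.06e-11). Id2, an inhibitor of E proteins, was at 66.2, 91.8 and 91.3 CPM in conventional cells, 20.9, 26.4 and 24.8 in CD25+ progenitors, 10.99, 11.6 and 14.9 in FOXP3lo progenitors and 5.44, 6.88 and 4.16 in mature Tregs. It fell by similar amounts in both contrasts (−2.73 ± 0.16 and −2.13 ± 0.18). Tcf7, a factor of T lineage cells, was at 1809, 1643 and 1830.0 CPM in conventional cells, 1513, 1573 and 1655 in CD25+ progenitors, 1441, 1338 and 1307 in FOXP3lo progenitors and 647, 623 and 648 in mature Tregs. FOXP3lo progenitors lay only a little below CD25+ progenitors, and mature Tregs far below. Il21, a helper cytokine, had no count in FOXP3lo progenitors and was at least 50.5-fold lower there than in conventional cells, against a floor of 3 counts over the gate. Of 16 tested effector helper genes, 12.5% were higher in both and 12.5% lower in both, near the 8.03% and 7.94% of all genes, with Il18r1 and Stat4 higher in both, Il21 and Il17rb lower in both and Bcl6 opposed.

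Genes of cell division fell together. Of 31 tested mitosis and cell cycle genes, 24 fell in both contrasts (77.4%, against 7.94% of all genes) and none rose in either. Their median log2 difference was −1.54 in the FOXP3 effect, −1.57 in the CD25-negative contrast and −1.41 in the CD25-positive contrast. Top2a, the topoisomerase that untangles chromosomes, was at 192, 168 and 189 CPM in conventional cells, 182, 152 and 136 in CD25+ progenitors, 55.02, 48.5 and 47.9 in FOXP3lo progenitors and 55.6, 40.4 and 48.5 in mature Tregs. Both FOXP3-negative gates overlapped and stood well above both FOXP3 gates, with a FOXP3 effect of −1.78 ± 0.07 (adjusted p = 5.42e-22). Of 28 tested DNA replication genes, 21 fell in both (75%, against 7.94% of all genes) and none rose in either. Their median log2 difference was −0.91 in the FOXP3 effect, −0.96 in the CD25-negative contrast and −0.82 in the CD25-positive contrast. Mcm2, a subunit of the replicative helicase, was at 86.8, 89 and 94.3 CPM in conventional cells, 133, 137 and 131 in CD25+ progenitors, 45.99, 45.02 and 47.1 in FOXP3lo progenitors and 66.9, 71.2 and 73.1 in mature Tregs. CD25+ progenitors were highest and FOXP3lo progenitors lowest. No member of either list had a called difference between the contrasts.

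Ribosome biogenesis fell in both contrasts for 21 of 26 tested genes (80.8%, against 7.94% of all genes), and no member rose in either. The median log2 difference was −0.54 in the FOXP3 effect, −0.51 in the CD25-negative contrast and −0.66 in the CD25-positive contrast. Utp20, a component of the small subunit processome, was at 94.6, 86.1 and 80.4 CPM in conventional cells, 178, 183 and 193 in CD25+ progenitors, 48.02, 52.8 and 44.8 in FOXP3lo progenitors and 75.7, 80.1 and 82.6 in mature Tregs. CD25+ progenitors were highest, FOXP3lo progenitors lowest, and mature Tregs near conventional cells. Glycolysis fell in both for 9 of 20 (Pfkp, Aldoa, Tpi1, Gapdh, Pgk1, Eno1, Pkm, Ldha and the lactate carrier Slc16a1) and rose in both for 2 (Hk1 and Hif1a). That is 45% lower and 10% higher, against 7.94% and 8.03% of all genes. Pgk1 was at 55.5, 61.3 and 60.4 CPM in conventional cells, 98.2, 105 and 118 in CD25+ progenitors, 39.5, 33.7 and 32.02 in FOXP3lo progenitors and 45.8, 49.1 and 48.8 in mature Tregs. All FOXP3-gate libraries lay below the others, with a FOXP3 effect of −0.96 ± 0.07 (adjusted p = 1.56e-14). Against a fold of 1.5, 2 ribosome biogenesis genes, 7 DNA replication genes, 15 mitosis genes and 0 glycolysis genes were called in both. With the Bst2+ libraries in the fit, 13 ribosome biogenesis, 11 DNA replication and 4 glycolysis genes were. Cholesterol synthesis showed 1 gene of 22 (Lss) lower in both, which is 4.55% against 7.94% of all genes. That call was lost against a fold of 1.5, with the Bst2+ libraries in the fit, and without conventional replicate 40 or 43 or FOXP3lo replicate 40. With DESeq2 and with each contrast fitted alone, 2 cholesterol genes were called in both.

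Immature thymocyte genes fell in both contrasts for 7 of 26 tested (Dntt, Cd24a, Satb1, Tcf7, Itm2a, Ccr4 and Hes1), 1 (Myb) rose in both and 1 (Sox4) was opposed. That is 26.9% lower and 3.85% higher, against 7.94% and 8.03% of all genes. Itm2a, a membrane protein of selected thymocytes, was at 483, 597 and 594 CPM in conventional cells, 373, 392 and 427 in CD25+ progenitors, 173, 179 and 177 in FOXP3lo progenitors and 163, 143 and 127 in mature Tregs. Its FOXP3 effect was −1.56 ± 0.06 (adjusted p = 2.55e-24). Cd24a, a surface protein lost during maturation, was at 23.2, 32.9 and 30.2 CPM in conventional cells, 92.4, 107 and 104 in CD25+ progenitors, 14.5, 13.8 and 14.1 in FOXP3lo progenitors and 18.7, 22.1 and 20.03 in mature Tregs. It peaked in CD25+ progenitors, as did Dntt, the enzyme that adds bases to antigen receptor joints. Markers of CD8 and double-positive cells moved in the same direction. Of 13 tested, 4 fell in both (Cd8a, Dntt, Runx3 and Tdrd5), which is 30.8% against 7.94% of all genes. The summed level of these markers was 158 to 211 CPM in conventional cells, 295 to 376 in CD25+ progenitors, 73.5 to 79.9 in FOXP3lo progenitors and 97 to 102 in mature Tregs, with no gene at 0. Their part in the fall of the immature, mitosis and replication genes was not tested. Gamma-delta T cell markers fell in both for 4 of 8 tested, which is 50% against 7.94% of all genes. Their summed level was 28.4 to 45.02 CPM in conventional cells, 48.95 to 56.8 in CD25+ progenitors, 18.02 to 23.3 in FOXP3lo progenitors and 23.7 to 30.5 in mature Tregs. The count of 4 was 2 with limma-voom and with each contrast fitted alone, and 0 with the Bst2+ libraries in the fit. Trgc1, a member, has near-identical copies.

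Markers of other cell types were counted against the 8.03% of all genes higher in both and the 7.94% lower in both. NKT and innate-like markers had 3 of 11 higher in both (Il2rb, Slamf6 and Slamf1), 1 lower (Il17rb) and 2 opposed (Gzma and Xcl1), with a summed level of 182 to 207 CPM in conventional cells, 339 to 355 in CD25+ progenitors, 383 to 401 in FOXP3lo progenitors and 871 to 928 in mature Tregs. Il2rb, the IL-2 receptor beta chain that Tregs also carry, made up most of that sum in mature Tregs, at 665, 626 and 681 CPM, and was at 19.98, 21.7 and 31 CPM in conventional cells. Recirculating or activated Treg markers had 3 of 12 higher in both (Ccr6, Itgae and Ahnak), 1 lower (Ccr8) and 1 opposed (Cd44). These 4 shared calls became 2 with limma-voom, with each contrast fitted alone and against a fold of 1.5, and 1 with the Bst2+ libraries in the fit. The list summed to 175 to 217 CPM in conventional cells, 316 to 336 in CD25+ progenitors, 185 to 201 in FOXP3lo progenitors and 511 to 523 in mature Tregs, with Klrg1 and S100a4 at 0. Their part in the mature Treg levels was not tested. B cell markers (6 tested) and dendritic cell and macrophage markers (10 tested) had no shared call. Plasmacytoid dendritic cell markers had 2 of 10 higher and 1 (Ptprs) lower, stroma markers had Pecam1 of 4 higher and Epcam opposed, and the 1 erythroid marker tested, Tfrc, was lower, with Hba-a2, Hbb-bs and Klf1 among the markers at 0. Of 15 mitochondrially encoded genes, ND6 rose and ND1 fell in both. Only 1 of both mitochondrial calls remained with RLE or upper quartile factors, with DESeq2, without the filter, without the 20 most abundant genes, or without conventional replicate 40 or 43, CD25+ progenitor replicate 40 or 43, any FOXP3lo replicate, or mature Treg replicate 40 or 42. Neither mitochondrial call remained against a fold of 1.5 or with the Bst2+ libraries in the fit.

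The FOXP3 effect hid genes that moved in opposite ways. The difference between the contrasts was called for 1698 genes (10.9%), 855 higher and 843 lower in the CD25-positive contrast. It was called for 337 of the genes higher in both, of which 240 rose more in the CD25-positive contrast, and for 101 of the genes lower in both, of which 75 fell more there. Of the 184 opposed genes, 120 were higher in FOXP3lo progenitors than in conventional cells and lower in mature Tregs than in CD25+ progenitors, and 64 were the reverse. The difference was called for all 184. Contrasts of opposite sign add up in that difference, so its call largely follows from how these genes were picked. Of the 184, 119 were not called in the FOXP3 effect. The FOXP3 effect in turn called 699 genes that neither contrast called, 1866 called in the CD25-positive contrast alone and 962 in the CD25-negative contrast alone. Tested against a fold of 1.5, 17 genes were opposed, and with the Bst2+ libraries in the fit 27 were.

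TCR-induced genes were the list with the largest share of opposed members. Of 27 tested, 10 were higher in FOXP3lo progenitors than in conventional cells and lower in mature Tregs than in CD25+ progenitors, against 1.18% of all genes opposed in either way. They were Nr4a1, Nr4a2, Nr4a3, Tnfrsf9, Nfatc1, Spry1, Ubash3a, Pdcd1, Dgkz and Xcl1. Rgs1 and Cblb rose in both, and Irf4 fell in both. Nr4a3, an orphan nuclear receptor induced within hours of TCR signalling, was at 111, 99.3 and 115 CPM in conventional cells, 388, 406 and 418 in CD25+ progenitors, 249, 233 and 233 in FOXP3lo progenitors and 322, 321 and 302 in mature Tregs. The gates stood in the order conventional, FOXP3lo, mature Treg, CD25+ progenitor, without overlap. The contrasts were 1.13 ± 0.07 and −0.36 ± 0.07. Tnfrsf9 (4-1BB), a costimulatory receptor, was at 27.7, 40.7 and 41.9 CPM in conventional cells, 377, 421 and 475 in CD25+ progenitors, 136, 133 and 141 in FOXP3lo progenitors and 229, 214 and 255 in mature Tregs. It had the same order, with a difference between contrasts of −2.77 ± 0.17 (adjusted p = 1.64e-09). Rgs16, a relative of Rgs1, was at 3.25, 2.62 and 4.19 CPM in conventional cells, 75.7, 92.5 and 95.4 in CD25+ progenitors, 25.8, 27.7 and 25.3 in FOXP3lo progenitors and 38.2, 47.1 and 47.2 in mature Tregs. Here too CD25+ progenitors were highest, in contrast to Rgs1, which was highest in mature Tregs.

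**Figure D5:**
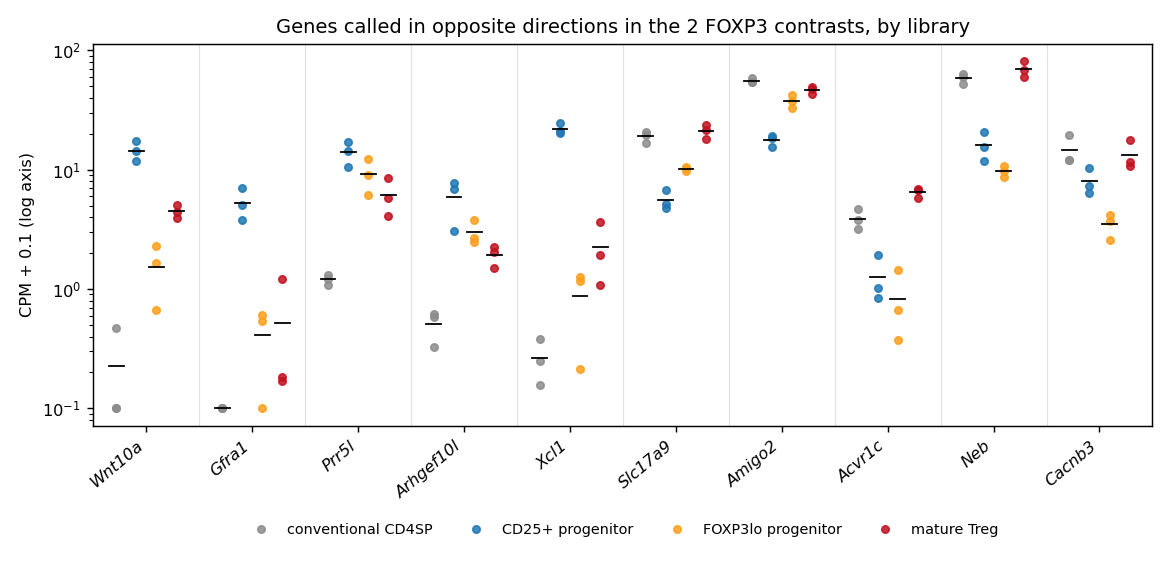
CPM + 0.1 on a log axis for the 10 opposed genes named by the rule, 1 point per library and a bar for the mean of 3, coloured by gate. For the 5 genes from Wnt10a to Xcl1, CD25+ progenitors lie above conventional cells, and for the 5 from Slc17a9 to Cacnb3 they lie below them.

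Xcl1 (ENSMUSG00000026573, chromosome 1, 164931644 to 164935527), a chemokine that draws cross-presenting dendritic cells, was at 0.284, 0.1497 and 0.0582 CPM in conventional cells, 20.2, 20.99 and 24.4 in CD25+ progenitors, 0.116, 1.07 and 1.16 in FOXP3lo progenitors and 1.84, 0.973 and 3.58 in mature Tregs. It was high in CD25+ progenitors alone. The CD25-positive contrast fell by 3.34 and the CD25-negative contrast rose by 2.09 ± 0.65 from levels near 0. Gfra1, a receptor chain for glial neurotrophic factors, was without any count in the conventional gate, and FOXP3lo progenitors were at least 5.80-fold higher against a floor of 3 counts over the gate. Its CD25+ progenitor libraries were at 6.94, 4.97 and 3.67 CPM and its mature Treg libraries at 0.0837, 0.0695 and 1.11. The secreted ligand Wnt10a (−5.53 ± 0.78), Prr5l, which binds the mTORC2 complex (−4.20 ± 0.44), and Arhgef10l (−4.41 ± 0.69) also had their highest mean in CD25+ progenitors. Neb (ENSMUSG00000026950, chromosome 2, 52136647 to 52378474), which encodes nebulin of the muscle thin filament, was at 59.3, 62.6 and 52.1 CPM in conventional cells, 20.4, 15.3 and 11.8 in CD25+ progenitors, 8.56, 10.7 and 9.68 in FOXP3lo progenitors and 68.8, 80.7 and 59.5 in mature Tregs. It was high in conventional cells and mature Tregs and low in both progenitors, so that contrasts of −2.59 ± 0.15 and 2.14 ± 0.15 left a FOXP3 effect of −0.22 ± 0.10 (adjusted p = 0.0886). The activin receptor Acvr1c (4.82 ± 0.68), the calcium channel subunit Cacnb3 (2.85 ± 0.38), the nucleotide transporter Slc17a9 (2.83 ± 0.28) and the adhesion protein Amigo2 (1.97 ± 0.17) also had both progenitor means below those of conventional cells and mature Tregs. With the Bst2+ libraries in the fit the differences of Xcl1, Wnt10a and Cacnb3 were not called (adjusted p = 0.0558, 0.0900 and 0.363 by edgeR), although their sizes were −5.48, −5.40 and 2.85.

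Both opposed genes of the apoptosis list, Bcl2 and Bcl2l11, ran against each other. Bcl2, which protects from apoptosis, was at 306, 288 and 326 CPM in conventional cells, 179.6, 162 and 152 in CD25+ progenitors, 263, 256 and 255 in FOXP3lo progenitors and 407, 389 and 386 in mature Tregs. It was lowest in CD25+ progenitors and highest in mature Tregs, with contrasts of −0.25 ± 0.07 and 1.26 ± 0.07. Bcl2l11 (Bim), which promotes apoptosis of thymocytes, was at 92.03, 83.3 and 98.9 CPM in conventional cells, 227, 292 and 273 in CD25+ progenitors, 96.2, 128 and 109.9 in FOXP3lo progenitors and 54.1, 61.2 and 46.8 in mature Tregs. It was highest in CD25+ progenitors and lowest in mature Tregs, with contrasts of 0.28 ± 0.10 and −2.29 ± 0.11. Bcl6, a transcriptional repressor expressed by follicular T cells, was at 25.5, 33.4 and 25.9 CPM in conventional cells, 73.1, 89.5 and 90.8 in CD25+ progenitors, 83.7, 99.7 and 86.5 in FOXP3lo progenitors and 35.98, 33.6 and 44.2 in mature Tregs. Both progenitors were high and both end populations low, with a difference of −2.83 ± 0.16 (adjusted p = 9.73e-17). Sox4, a factor of immature thymocytes, had contrasts of 0.29 ± 0.08 and −1.78 ± 0.08, and Tet2, which oxidises methylated cytosine, 0.42 ± 0.07 and −0.77 ± 0.07. Tnfaip3, an inhibitor of NF-kB, had 0.40 ± 0.08 and −0.49 ± 0.08, and Ptpn22, a phosphatase that restrains TCR signals, 0.82 ± 0.08 and −0.38 ± 0.08.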

How the data were processed

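RNA was sequenced from a strand-preserving total RNA kit (SMARTer, Pico Input), per the labels' protocols. The deposited values are raw counts per Ensembl gene. Per the file headers, the authors counted with featureCounts 1.6.2 on Ensembl release 97 with strand setting 2 and a mapping quality of at least 10. The submitters' processing notes name Trimmomatic 0.33, HISAT2 2.1.0, featureCounts 1.4.6 and GRCm38. Amplification copies cannot be told from molecules, so floors cover counting error only.

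Symbols came from positions in a RefSeq table of GRCm38.p6, which named 35830 of 55573 genes. Unnamed genes were tested and are not named here. The 12 libraries held 12597114 to 23758157 counts, with a biological coefficient of variation of 0.184. They were fitted as 4 gate means in R 4.3.3 with edgeR 4.0.16 (filterByExpr, TMM, robust quasi-likelihood). The script was tested on simulated data. Genes were named by rule: the 12 highest and 12 lowest FOXP3 effects among shared genes whose 6 against 6 libraries do not overlap, with at least 5 CPM in the gates where it is higher. To these the rule added 5 opposed genes per direction, up to 4 shared and 2 opposed members per list, and the gate genes, and it passed over pseudogenes, receptor segments, clone names and small RNAs. Other genes are named as members of a count. The 29 lists held 681 entries, of which 665 matched a gene. Members and lists were chosen with earlier results of these data known.

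Alternatives were a fit of all 15 libraries, upper quartile or RLE factors, a stricter filter (2 CPM in 3 libraries) or none, replicate numbers as a block, removal of the 20 most abundant genes, testing against a fold of 1.5, limma-voom (3.58.1), DESeq2 (1.42.0), each contrast fitted alone, and each library left out. Promoter sequences were not analysed here, and some genes are not reported here.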

Additional observations from a re-analysis of the deposited data

Results flagged for a closer look

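For these named genes the CD25-positive contrast (mature Tregs against CD25+ progenitors) and the CD25-negative contrast (FOXP3lo progenitors against conventional cells) differed by edgeR's quasi-likelihood test of the difference itself, at an adjusted p under 0.05. Values in brackets are the first contrast minus the second, on the log2 scale. No explanation was tested. With the Bst2+ libraries in the fit, the differences of Epcam, Nfatc1, Pde4a, Wnt10a, Xcl1 and Cacnb3 were not called.

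Genes that rose in both contrasts, and more in the CD25-positive contrast, were Gpr83 (3.47), Ntn4 (2.42), Ahnak (2.28), Itgae (1.497), Gimap3 (1.33), Gbp7 (1.29), Rgs1 (1.13), S1pr1 (1.11), Ifi203 (0.97), Klf6 (0.97), Klf2 (0.87), Slamf1 (0.82), Casp8 (0.78), Ltb (0.69), Ifi209 (0.63), Birc2 (0.53), Mcl1 (0.50), Pde4b (0.47), Slfn8 (0.45), Akap13 (0.35) and Traf1 (0.33). Genes that rose in both, and more in the CD25-negative contrast, were Dscam (−4.17), Itgb8 (−4.03), Tmem121b (−2.83), Irf8 (−2.21), Lrrc32 (−1.55), Ccr6 (−1.504), Il2rb (−0.95), Cblb (−0.95) and Cish (−0.38). In each of the latter, the mean of CD25+ progenitors already stood above that of conventional cells.

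Genes that fell in both contrasts, and more in the CD25-positive contrast, were Nrgn (−2.54), Cd40lg (−1.49), Cd24a (−1.30), Tcf7 (−0.93), Ptprs (−0.54) and Utp20 (−0.37). Those that fell more in the CD25-negative contrast were Il17rb (2.14), Runx3 (0.67) and Irf4 (0.58).

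Genes with opposite signs, higher in FOXP3lo progenitors than in conventional cells and lower in mature Tregs than in CD25+ progenitors, were Gfra1 (−9.02), Gzma (−8.48), Wnt10a (−5.53), Xcl1 (−5.44), Arhgef10l (−4.41), Prr5l (−4.20), Rgs16 (−3.95), Spry1 (−3.12), Bcl6 (−2.83), Tnfrsf9 (−2.77), Bcl2l11 (−2.57), Pde4a (−2.30), Sox4 (−2.07), Epcam (−1.98), Nr4a3 (−1.49), Ptpn22 (−1.20), Tet2 (−1.18), Tnfaip3 (−0.89), Cd44 (−0.67) and Nfatc1 (−0.64). The fitted values of Gfra1 and Gzma depend on a gate without counts and are no measure of fold. Those with the reverse signs were Acvr1c (4.82), Neb (4.73), Cacnb3 (2.85), Slc17a9 (2.83), Amigo2 (1.97), Bcl2 (1.51) and Gimap9 (0.80).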

How the results depend on the processing

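The counts of called genes moved by more than 1.5 times under 2 alternatives. In the test against a fold of 1.5, 224 genes were higher and 215 lower in both contrasts, 17 were opposed, 659 were higher and 690 lower in the FOXP3 effect, 867 were called in the CD25-negative contrast, 1338 in the CD25-positive contrast and 369 for their difference. With all 15 libraries fitted, 484 genes were higher and 369 lower in both contrasts, 27 were opposed, 1512 were higher and 1488 lower in the FOXP3 effect, 1400 were called in the CD25-negative contrast, 2096 in the CD25-positive contrast and 378 for their difference. Fewer genes can pass a test against a larger fold; the cause of the second drop was not tested. Under the scalings, filters, tools and fits of each contrast alone that were run, every count over all genes stayed within 1.5 times, while members called in both moved further for gamma-delta, recirculating Treg, cholesterol and mitochondrial genes. DESeq2 gave 1279 higher and 1317 lower in both, and limma-voom 1293 and 1232. With 1 library left out, 1088 to 1222 genes were higher and 1023 to 1204 lower in both, 157 to 187 were opposed, 2768 to 2927 were higher and 2852 to 3109 lower in the FOXP3 effect, 3205 to 4054 and 4449 to 5181 were called in the CD25-negative and CD25-positive contrasts and 1401 to 1610 for their difference. Of 140 genes named by the rule, 16 changed side of the threshold against a fold of 1.5, 11 with all libraries fitted and 1 (Trbc2, now called) without conventional replicate 40. No gene reversed.

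Members called in both contrasts against a fold of 1.5 numbered 11 for the Treg signature, 11 for maturation and egress, 6 for NF-kB, 4 for IL-2 and STAT5, 4 for transcription factors, 5 for conventional T cell genes, 4 for immature thymocytes, 5 for homing and 1 for apoptosis. With all libraries fitted, 9 transcription factors, 8 homing and 5 apoptosis genes remained called.

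With the replicate number as a block, 1291 genes were higher and 1281 lower in both contrasts, 193 were opposed, 3026 were higher and 3113 lower in the FOXP3 effect, 4023 were called in the CD25-negative contrast, 5193 in the CD25-positive contrast and 1755 for their difference. Deviations from the gate means correlated across genes by −0.0104 to 0.0538 (mean 0.0190, 18 pairs) for libraries with the same number and by −0.0648 to 0.0331 (mean −0.00949, 36 pairs) for others, so the numbers were not taken to pair the samples. Depth limited genes near 0 CPM, for which a gate without counts gives a bound only.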

Other observations

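Genes of antigen presentation by MHC class I, a list chosen after the values were seen, mostly rose in the FOXP3 gates. Of 20 genes tested, 12 were higher in both contrasts (60.0%, against 8.03% of all genes) and none was lower in both, while Psme2 (−0.30) and Erap1 (−0.14) were called lower in the FOXP3 effect. Those higher in both were H2-K1, H2-D1, H2-Q4, H2-Q6, H2-Q7, H2-T22, H2-T24, the light chain B2m, the peptide transporter Tap1, its partner Tapbp, the proteasome subunit Psmb9 and the regulator Nlrc5. Mean B2m levels (CPM ± SD, n = 3) were 835 ± 9.396 for FOXP3lo progenitors and 969 ± 30.8 for mature Tregs, against 529 ± 15.9 for conventional cells and 464 ± 9.59 for CD25+ progenitors. Mean Nlrc5 levels (CPM ± SD, n = 3) were 545 ± 6.996 for FOXP3lo progenitors and 465 ± 57.2 for mature Tregs, against 358 ± 32.8 for conventional cells and 185 ± 7.44 for CD25+ progenitors. CD25+ progenitors had the lowest mean for both. Several H2 genes are near-identical copies, so their counts are uncertain.

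Protein-folding genes of the chaperonin and HSP90 systems, also chosen after the values were seen, mostly fell. Of 17 genes tested, 12 were lower in both contrasts (70.6%, against 7.94% of all genes) and none was higher in both, among them the chaperonin subunits Cct2, Cct3, Cct6a, Cct8 and Tcp1, the mitochondrial pair Hspd1 and Hspe1, and Hsp90ab1 with its partners Stip1 and Cdc37. Mean Hspd1 levels (CPM ± SD, n = 3) were 90.3 ± 6.18 for FOXP3lo progenitors and 155 ± 14.2 for mature Tregs, against 107 ± 9.23 for conventional cells and 302 ± 14.6 for CD25+ progenitors. Mean Hsp90ab1 levels (CPM ± SD, n = 3) were 1250.1 ± 83.9 for FOXP3lo progenitors and 1978 ± 196 for mature Tregs, against 1492 ± 123 for conventional cells and 3350.0 ± 207 for CD25+ progenitors. CD25+ progenitors had the highest mean and FOXP3lo progenitors the lowest for both, and mature Tregs lay above conventional cells.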
